A study of Homo sapiens with 12 samples.

Results

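Liberated nucleocapsid was compared with the gag protein it is cut from, in HEK293 cells transfected with one or the other. The comparison took 6 of the 12 libraries of the experiment, namely 3 of cells given the PEG10 NC plasmid and 3 of cells given the PEG10 gag plasmid, paired by replicate number, and 26484 of the 26485 genes in the count table, leaving out *PEG10* itself. All cells were WT HEK293, a human embryonic kidney line with a partly neuronal expression profile. The other 6 libraries came from cells given PEG10 gag-pol or, as the control, LifeAct-Dendra2, a fluorescent actin marker. Every plasmid carried a CMV promoter, which does not make the levels of the constructs equal. The endogenous *PEG10* gene was intact in all 4 groups. The question was which transcripts differ when the nucleocapsid is free instead of joined to the rest of gag.

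PEG10 is a domesticated retrotransposon protein of the Ty3 family. In retroelements, gag builds the capsid shell and its nucleocapsid end binds nucleic acid through a CCHC zinc knuckle, a short loop in which cysteines and a histidine hold a zinc ion. Proteolytic maturation separates the nucleocapsid from the capsid domains, and the free fragment can then go to other places in the cell than the assembled polyprotein.

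The NC construct encodes amino acids 260 to 325 of gag, 66 residues, and so lacks the first 259 residues. On GRCh38 these residues lie at chr7:94664334-94664531 on the forward strand, in a coding exon of *PEG10* (ENSG00000242265.6), and the whole gag frame of 975 bases starts at position 94663557. The 198 reference bases are printed because they are, by residue range, all the *PEG10* coding sequence that the NC and gag constructs share. The 42 bases that encode the CCHC knuckle are in capitals. The sequences of the plasmids themselves were not used here.
NC: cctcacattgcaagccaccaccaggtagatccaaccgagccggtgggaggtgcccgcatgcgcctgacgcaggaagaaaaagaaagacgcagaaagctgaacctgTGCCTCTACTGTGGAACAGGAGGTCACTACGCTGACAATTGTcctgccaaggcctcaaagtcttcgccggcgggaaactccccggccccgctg

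Each library held between 30625725 and 45316749 counts, and 17175 genes other than *PEG10* passed the filter on low counts. All 11 markers of the HEK293 line were above 1 CPM, counts scaled to a fixed library total, in each of the 6 NC and gag libraries. Of these 3 were called higher and 1 lower with NC, a called share of 36.4% beside 16.9% of all genes. Of 23 markers of blood, endothelial, fibroblast, keratinocyte, muscle and liver cells, 14 stayed under 1 CPM in all 6. The fibroblast marker *COL1A1* had the highest level of the 23, at 15.6 to 25.4 CPM. The muscle marker *MYH3* reached 15.47 CPM, and neither of these was called. *CD14*, a monocyte receptor, reached 11.98 CPM and *ACTA1*, skeletal muscle actin, reached 9.93 CPM, and both were called lower with NC, among 11 such markers tested, of which 0 were higher. All 11 had a negative log2 difference, with a median of -0.74, and the summed normalised counts of all 23 were 1944 to 2720 with gag and 1045 to 2123 with NC. The part of other cell types in the results was not tested.

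The library gag 2 stood apart from the other 11 by heart muscle transcripts. *MYH6*, the atrial myosin heavy chain, had 4864 counts there and at most 14 in any other library. *ACTC1*, cardiac actin, had 4742 against at most 33, *TNNT2*, cardiac troponin T, had 1609 against at most 8, and *MYL7*, an atrial myosin light chain, had 757 against at most 1. In gag 2, 21 genes had at least 50 counts and more than 10 times the CPM of every other library, and no other library had such a gene. Over 22 heart muscle genes, a list chosen after these values were seen, the summed level was 659.5 CPM in gag 2 and 133 to 191 CPM elsewhere. Of the 21 genes only *MYH6*, *ACTC1*, *MYH7*, *NPPA*, *TNNI1* and *MYBPC3* passed the filter on low counts, so the rest could not be called. None of those tested was called between NC and gag by edgeR, with a Benjamini-Hochberg adjusted p of 0.0628 or more. This does not show whether the library changed the calls of other genes. Without gag 1, 504 genes were called higher and 435 lower. Without gag 2, 1657 genes were called in place of 2897, and these included 53.8% of the 2897. The part of this library in single results was not tested beyond the values without it that are given beside them.

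Many transcripts differed between free nucleocapsid and gag, most by small amounts. With NC, 1504 genes were higher and 1393 lower than with gag, 2897 of 17175 or 16.9%, with 0.05 as the limit on the Benjamini-Hochberg adjusted p of edgeR (quasi-likelihood test, replicate number as a term), the test behind every adjusted p here. The called genes differed by a median of 0.39 on the log2 scale, or 1.31-fold. Large changes were mostly falls, since 132 of the called genes fell by at least 1 on the log2 scale and 20 rose by as much. Where the mean log2 CPM was 1 or more, 53 fell and 7 rose by that amount. All 3 replicate pairs moved the same way for 2859 of the called genes (98.7%), against 47.3% of all genes tested. The 3 NC libraries did not overlap the 3 gag libraries for 1348 called genes (46.5%), against 14.4% of all genes tested (7.09% with NC higher and 7.3% with NC lower). The calls depended on the pairing by replicate number: without it edgeR called 0 genes, with 1891 at an unadjusted p under 0.05.

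**Figure D1:**
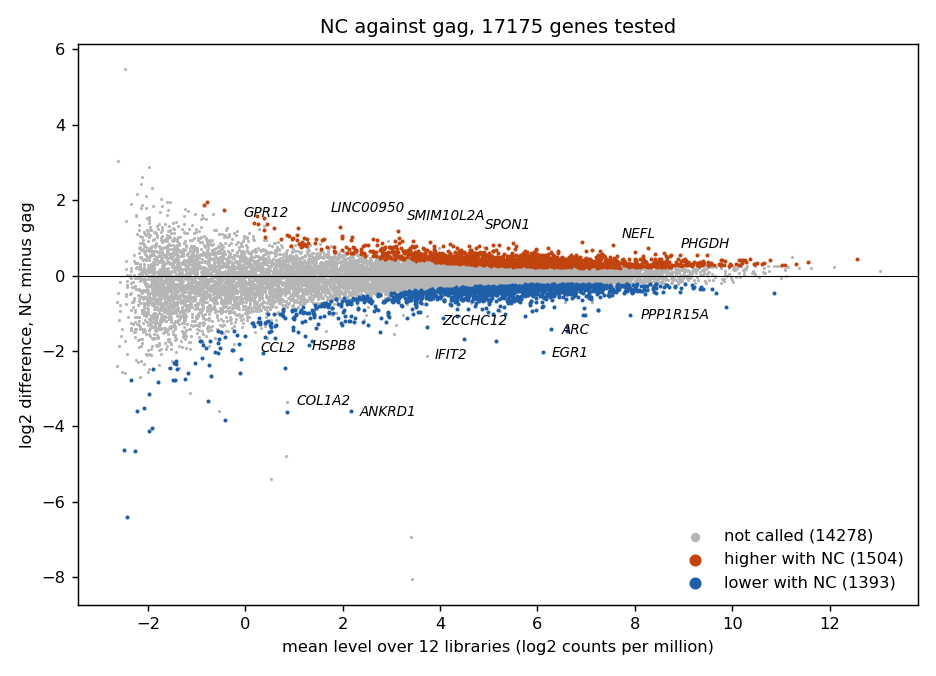
Log2 difference between NC and gag (vertical axis) against mean level over the 12 libraries in log2 CPM (horizontal axis), 1 point for each of the 17175 genes tested. Colored points passed an adjusted p under 0.05. Most sit within 1 log2 unit of 0, and the farthest called ones at a mean of 1 or more lie below the line, such as *ANKRD1* and *EGR1*. The grey points near -7 and -8 are *ACTC1* and *MYH6*, which were high in the library gag 2 alone.

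The shared sequence gave a first check of the labels. *PEG10* took 5.93, 3.78 and 6.10% of all counts in gag 1, 2 and 3, and 0.303, 0.238 and 0.389% in NC 1, 2 and 3, against 0.0230 to 0.0346% in the control libraries. Each NC library was thus above each control and below each gag library, and the log2 difference of NC from gag was -4.10 (SE 0.43, adjusted p = 0.00221). Because the NC frame holds 198 of the 975 bases of gag, fewer plasmid transcripts and shorter ones cannot be told apart in these counts.

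2 neighbors of *PEG10* on chromosome 7 were also lower with NC than with gag, and these were the only called members among 15 neighbors tested. That is a called share of 13.3%, beside 16.9% of all genes, so the 2 are given by their values. *COL1A2*, a chain of type I collagen, lies 225098 bases before *PEG10* on the same strand. It had normalised read counts of 143, 78.4 and 159 in gag 1, 2 and 3 and of 6.15, 4.65 and 19.8 in NC. The gag and NC libraries did not overlap, and the gag-pol libraries, at 178, 128 and 61.0, stood with gag while the controls, at 9.34, 8.87 and 9.68, stood with NC. The log2 difference was -3.63 (SE 0.47, adjusted p = 0.000261), and it was -3.84 without gag 2. *CASD1*, a sialic acid O-acetyltransferase whose gene ends 99306 bases before *PEG10*, had 585, 448 and 698 with gag and 340, 319 and 268 with NC. It fell by 0.89 on the log2 scale (SE 0.17, adjusted p = 0.00192). Whether reads of the plasmids entered these counts was not tested.

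Immediate early genes, which cells switch on within minutes of a stimulus, were lower with NC. Of 31 tested, 20 fell and 0 rose, against 8.11% lower and 8.76% higher among all genes tested. Their median log2 difference was -0.48, against -0.01 over all genes, and it was negative in each pair (-0.60, -0.32 and -0.36). *EGR1*, a zinc finger transcription factor of this class, had 8603, 2799 and 2001 normalised counts with gag and 1446, 798 and 656 with NC. Every NC library lay below every gag library, a 4.06-fold difference (log2 -2.02, SE 0.44, adjusted p = 0.0287), but without gag 2 the adjusted p was 0.0806 and without gag 1 it was 0.112, at log2 differences of -2.07 and -1.79. *ARC*, itself a gag-derived gene that neurons use at synapses, had 4072, 4472 and 4365 with gag and 1056, 1584 and 2453 with NC. The 2 sets did not overlap, and *ARC* fell by 1.41 (SE 0.23, adjusted p = 0.00723). *ATF3*, a stress-induced transcription factor, had 11400, 7475 and 7369 with gag and 4832, 4758 and 4194 with NC, a fall of 0.91 (SE 0.12, adjusted p = 0.000671). The AP-1 subunits *JUN*, *JUNB* and *JUND* fell by 0.84, 1.03 and 0.44, and *ZFP36*, which destabilizes AU-rich mRNAs, fell by 0.82. 12 of the 31 were still called lower without gag 2 and 8 without gag 1.

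Phosphatases that damp the MAP kinases fell with them. *DUSP8* had 6812, 4663 and 8275 with gag and 2878, 2718 and 3832 with NC, and fell by 1.04 (SE 0.19, adjusted p = 0.0101). *DUSP1* fell by 0.81 and *DUSP5* by 0.61, and among 18 feedback genes of the ERK pathway 5 fell and 1, *PHLDA1*, rose, with 1 called lower without NC 1. *GADD45B*, a stress sensor upstream of p38 and JNK, had 6002, 4400 and 7312 with gag against 1488, 2115 and 2787 with NC. It fell by 1.47 (SE 0.37, adjusted p = 0.0418), and the adjusted p was 0.108 without gag 2. Set against control, the median of the 31 immediate early genes was 0.33 for gag against control and -0.10 for NC against control, 2 comparisons that share the control libraries.

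**Figure D2:**
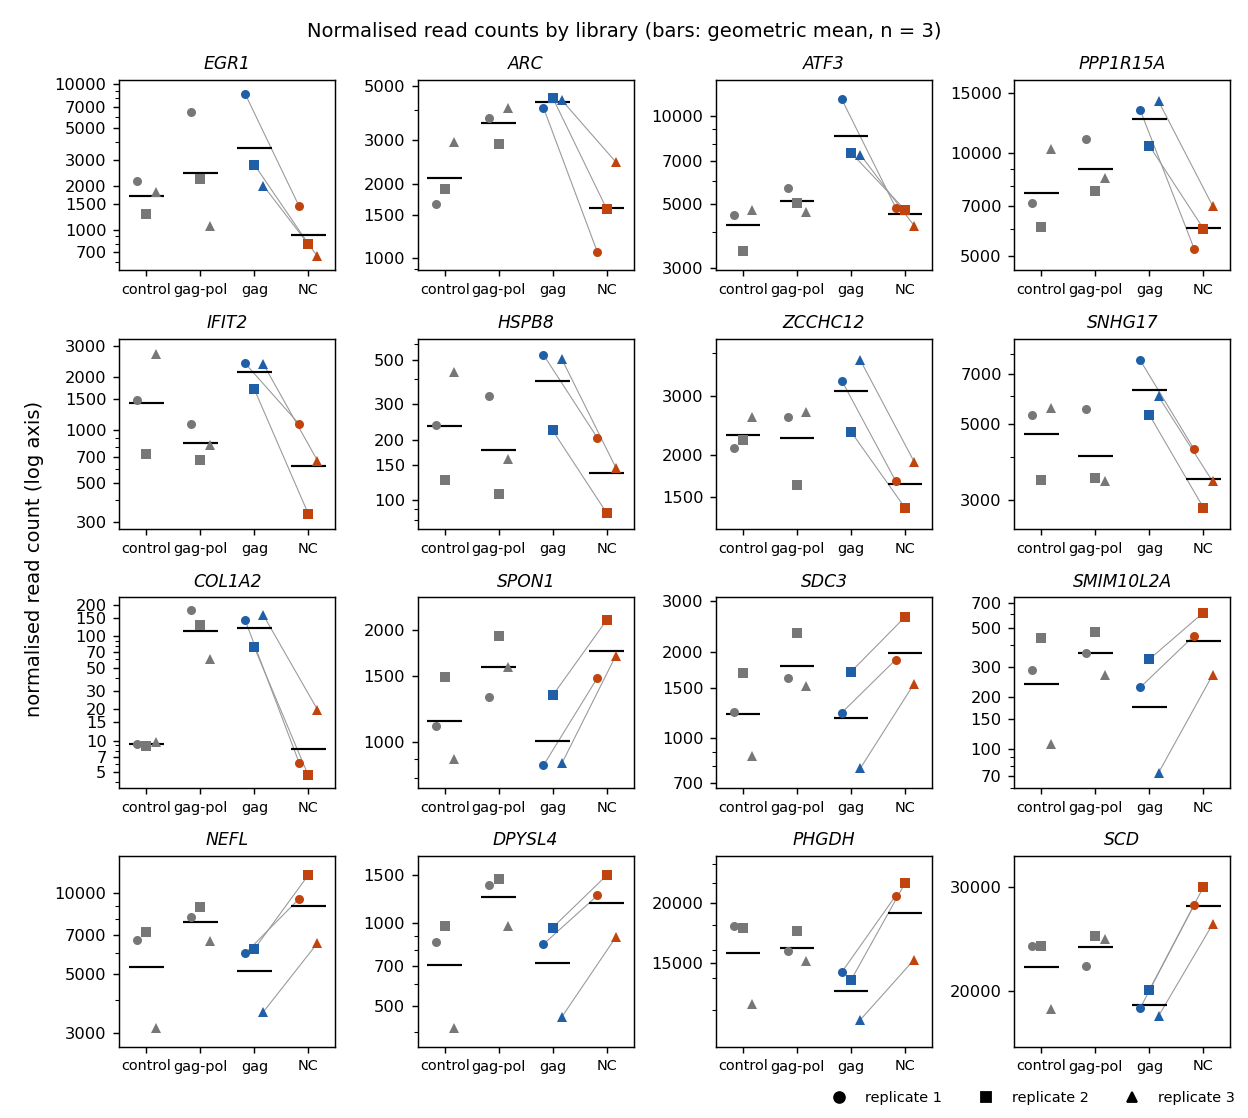
Normalised read counts of 16 genes in all 12 libraries on log axes, grouped by construct, with the replicate number as the symbol, a bar at the geometric mean and thin lines joining gag and NC libraries of the same number. In each panel all 3 lines run the same way, down for *EGR1* through *COL1A2* and up for *SPON1* through *SCD*. The gag mean lies above the control mean in all 9 falling genes, and replicate 3 of the control lies apart from its group in several panels.

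*ANKRD1*, a cardiac ankyrin repeat protein that responds to mechanical and Hippo signals, had the largest fall among called genes that averaged 1 or more in log2 CPM and moved the same way in all pairs. It had 272, 1153 and 116 with gag and 35.9, 28.8 and 40.8 with NC, against 49.8, 43.5 and 57.0 in control. Its highest value came from gag 2, the library with heart muscle transcripts. The log2 difference was -3.59 (SE 0.94, adjusted p = 0.0481) with that library and -2.20 (SE 0.37, adjusted p = 0.00219) without it. The call was lost in 16 of 26 alternatives, among them leaving out gag 1 (adjusted p = 0.0898) or any single NC, control or gag-pol library and fitting the 6 NC and gag libraries alone, with no change of sign and the log2 difference between -4.38 and -2.20.

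The promoters of *EGR1* and *ANKRD1*, the 2 largest falls with a single promoter in the RefSeq table, and those of 2 of the largest rises are shown with motif matches in capitals, since these are the genes on which the ends of the distribution rest. Each is the 250 bases before the annotated start on GRCh38.p14, read 5' to 3' on the gene's own strand.
EGR1, chr5:138465229-138465478, forward: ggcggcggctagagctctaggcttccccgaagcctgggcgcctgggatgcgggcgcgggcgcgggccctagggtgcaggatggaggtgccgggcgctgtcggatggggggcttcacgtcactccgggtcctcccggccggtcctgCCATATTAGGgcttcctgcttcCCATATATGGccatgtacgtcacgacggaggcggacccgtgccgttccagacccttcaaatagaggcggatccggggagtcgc
ANKRD1, chr10:90921088-90921337, reverse: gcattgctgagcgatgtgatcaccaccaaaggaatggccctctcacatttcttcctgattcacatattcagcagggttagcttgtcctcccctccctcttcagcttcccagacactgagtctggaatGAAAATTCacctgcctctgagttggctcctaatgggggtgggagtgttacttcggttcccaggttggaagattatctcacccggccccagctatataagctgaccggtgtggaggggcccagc
GPR12, chr13:26760787-26761036, reverse: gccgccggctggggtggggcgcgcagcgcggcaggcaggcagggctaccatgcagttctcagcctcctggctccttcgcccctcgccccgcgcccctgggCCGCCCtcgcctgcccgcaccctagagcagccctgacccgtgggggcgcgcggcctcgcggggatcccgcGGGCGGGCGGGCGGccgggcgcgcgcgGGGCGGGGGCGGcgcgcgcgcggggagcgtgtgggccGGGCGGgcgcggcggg
SMIM10L2A, chrX:135421694-135421943, forward: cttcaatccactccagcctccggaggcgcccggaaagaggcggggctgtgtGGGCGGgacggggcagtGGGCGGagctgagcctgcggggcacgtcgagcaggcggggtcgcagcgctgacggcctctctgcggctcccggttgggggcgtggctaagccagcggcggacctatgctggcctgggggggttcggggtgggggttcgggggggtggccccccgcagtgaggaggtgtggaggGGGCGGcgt
Both strands were searched for the TATA box (TATAAA), the CCAAT box, the GC box (GGGCGG), the E-box CACGTG, the cAMP response element (TGACGTCA), the heat shock unit GAANNTTC, the interferon response element taken as 2 copies of GAAA with 2 bases between them, and the CArG box of serum response factor. Matches to the same motif may overlap. The *EGR1* window held 2 CArG boxes, starting at -105 and -83, a motif in 1.16% of all 35116 promoter windows of the table. The *ANKRD1* window held 1 GAANNTTC at -123, present in 5.78% of windows. *GPR12* held 7 matches to GGGCGG and *SMIM10L2A* held 3, a motif in 42.6% of windows. Only 74.6% of the genes tested had a promoter in the table, under the 80% set for comparing groups of genes, so motif shares were not compared between higher and lower genes.

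Heat shock genes moved in both directions, with more falls than rises. Of 33 tested, 10 fell and 3 rose, against 8.11 and 8.76% of all genes, and without gag 1, 2 were called lower. *HSPB8*, a small chaperone that works with *BAG3* in selective autophagy, had 530, 223 and 504 with gag and 204, 86.5 and 145 with NC. Its libraries did not overlap, and it fell by 1.51 (SE 0.26, adjusted p = 0.00168). *HSPA1A*, an inducible HSP70, had 8593, 6395 and 3394 with gag and 4323, 4327 and 2832 with NC, so that gag 3 lay within the NC range, and fell by 0.61 (SE 0.13, adjusted p = 0.00936). *HSPA1B*, a near-identical copy with which it can share reads, fell by 0.47. *BAG3*, *DNAJB1* and *HSPH1* fell by 0.30, 0.31 and 0.24. The 3 that rose were *HSPD1*, the mitochondrial chaperonin, *SERPINH1*, the collagen chaperone of the endoplasmic reticulum, and *FKBP4*, an HSP90 co-chaperone, by 0.31, 0.36 and 0.29.

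The ATF4 program of the integrated stress response, in which phosphorylated eIF2-alpha favors translation of ATF4, also went both ways. Of 40 targets, 18 rose and 6 fell, with a median of 0.27. Among those that rose were enzymes of amino acid synthesis, and also *DDIT4* and *EIF4EBP1*, which restrain mTORC1 signaling and cap-dependent translation, by 0.31 and 0.51. Without gag 1, 14 of the list were higher and 3 lower. *PHGDH*, the first enzyme of serine synthesis, had 14390, 13850 and 11460 with gag and 20700, 21950 and 15270 with NC. No NC library lay within the gag range, and *PHGDH* rose by 0.54 (SE 0.08, adjusted p = 0.000510). *PYCR1*, which completes proline synthesis, rose by 0.62 from 2353, 2890 and 2001 to 3775, 4214 and 3079 (adjusted p = 0.000531). *PSAT1*, *ASNS*, *CBS* and *MTHFD2* rose by 0.65, 0.57, 0.56 and 0.47. The genes that fell included *PPP1R15A*, which directs dephosphorylation of eIF2-alpha. It had 13400, 10520 and 14220 with gag and 5243, 6012 and 7016 with NC, without overlap, and fell by 1.05 (SE 0.16, adjusted p = 0.00346). *ATF3*, the glutathione-degrading enzyme *CHAC1* and the transcription factor *DDIT3* fell by 0.91, 0.89 and 0.25. Of 23 aminoacyl-tRNA synthetases 8 rose and 0 fell (34.8% called), among them *WARS* by 0.40 and *QARS* by 0.38.

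A subset of interferon-stimulated genes, which carry out antiviral defense, was lower with NC. Of 44 tested, 8 fell and 1 rose, and their median of -0.24 was not shared by pair 1, where it was 0.04. Of all genes 8.11% were lower, and the count of 8 became 2 without gag 2 and 3 without gag 1. *IFIT2*, which binds foreign RNA, had 2402, 1711 and 2374 with gag and 1083, 333 and 670 with NC. The 2 sets did not overlap, and it fell by 1.74 (SE 0.39, adjusted p = 0.0289), but the adjusted p rose to 0.0883 without gag 2 and to 0.0905 without gag 1. *IFIT3* had 1385, 997 and 1664 with gag and 701, 212 and 434 with NC and fell by 1.67 (SE 0.40, adjusted p = 0.0347), with an adjusted p of 0.1001 without gag 2. *IFIT1* had 844, 560 and 1203 with gag and 529, 209 and 482 with NC, fell by 1.12 (SE 0.19, adjusted p = 0.00221) and was called without gag 2 as well (adjusted p = 0.0115). The RNA sensors *DDX58* and *IFIH1* and their relative *DHX58* fell by 0.75, 0.70 and 1.03. *BST2*, which tethers budding virus to the membrane, rose by 0.76, from 149, 280 and 216 to 236, 476 and 385, with overlapping ranges. The control libraries spread widely for this group, from 729 to 2722 normalised counts of *IFIT2*.

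The *IFIT1* promoter is printed because *IFIT2* and *IFIT3* do not have a single promoter in the table, and it shows the element of this gene group. Capitals mark 2 matches to the interferon response element, starting at -116 and -103 and present in 3.02% of all windows, and 2 matches to CCAAT, found in 32.01%.
IFIT1, chr10:89392373-89392622, forward: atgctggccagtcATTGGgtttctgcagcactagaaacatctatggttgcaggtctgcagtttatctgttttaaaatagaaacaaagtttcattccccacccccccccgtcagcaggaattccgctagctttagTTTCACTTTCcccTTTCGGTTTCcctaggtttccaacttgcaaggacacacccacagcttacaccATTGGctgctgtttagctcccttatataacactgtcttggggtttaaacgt

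Many zinc finger genes were lower with NC. Of 494 genes with a ZNF symbol, most of which encode DNA-binding repressors, 122 fell (24.7%) and 7 rose. Among all genes tested 8.11% were lower and 8.76% higher. The median was -0.23, and it was -0.35, -0.26 and -0.06 in pairs 1, 2 and 3. *ZNF274*, which marks the 3' ends of other zinc finger genes for silencing, had 5392, 3702 and 4206 with gag and 3525, 2489 and 2579 with NC. The libraries did not overlap, and it fell by 0.63 (SE 0.09, adjusted p = 0.000261). *ZNF513* and *ZNF628* fell by 0.73 each. Falls on chromosome 19, where these genes cluster, numbered 62 of 239, and elsewhere 60 of 255. Without gag 1, 38 of the family were called lower, and without gag 2 it was 86.

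Splicing, transcription and small nucleolar RNA host genes each held called members in both directions. *CCNL1*, a cyclin of splicing kinases, had 4946, 3251 and 3648 with gag and 2512, 1870 and 2265 with NC, and fell by 0.82 (SE 0.11, adjusted p = 0.000261). Among 79 SR and hnRNP splicing factors 13 fell, such as *CLK1* by 0.58 and *PRPF38B* by 0.39, and 2 rose, *HNRNPA1* by 0.43 and *HNRNPA3* by 0.32. Their called share was 19%, beside 16.9% of all genes, their median was -0.04, and 1 was called lower without gag 1. *SNHG17*, a host gene of small nucleolar RNAs, had 7656, 5304 and 5999 with gag and 4206, 2846 and 3395 with NC, without overlap, and fell by 0.86 (SE 0.11, adjusted p = 0.000265). *SNHG15* fell by 0.65, while *SNHG5* rose by 0.29. Among 62 genes of RNA polymerase II transcription, 10 fell, including *HEXIM1*, an inhibitor of the elongation factor P-TEFb, by 0.50, and 4 rose, with a median of -0.01 and 2 called lower without gag 1. Of 49 replication-dependent histone genes 11 fell and 0 rose, and 3 were called lower without gag 1 and 0 without replicate number 1. *HIST1H1E*, a linker histone, had 270, 205 and 93.6 with gag and 69.7, 73.5 and 37.5 with NC and fell by 1.61 (SE 0.29, adjusted p = 0.00114). Histone mRNAs of this class lack a poly(A) tail and the libraries were made from poly(A) RNA, so these counts cover only the share that was captured.

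Among 19 genes with a CCHC zinc knuckle of their own, 4 fell and 2 rose, a called share of 31.6% beside 16.9% of all genes. *ZCCHC12*, which is also gag-derived and is a coactivator in BMP signaling, had 3320, 2345 and 3827 with gag and 1673, 1396 and 1910 with NC. The 2 sets did not overlap, and *ZCCHC12* fell by 0.92 (SE 0.10, adjusted p = 0.000261). *ZCCHC8*, a subunit of the nuclear exosome targeting complex, and *LIN28B*, which blocks let-7 maturation, fell by 0.59 and 0.38. Among 17 domesticated gag genes other than *PEG10*, *ARC* and *ZCCHC12* fell while *LDOC1*, *PNMA2*, *FAM127A* and *FAM127B* rose by 0.54, 0.45, 0.28 and 0.26. The called share of these 17 was 35.3%.

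Genes of axon growth and the neuronal cytoskeleton were higher with NC. Of 38 tested, 16 rose and 2 fell, a called share of 47.4%, against 8.76% higher and 8.11% lower among all genes tested. The median was 0.26, with medians of 0.27, 0.25 and 0.20 in the 3 pairs. *NEFL*, the light neurofilament chain, had 5959, 6188 and 3611 normalised counts with gag and 9542, 11700 and 6515 with NC. The NC libraries were above all 3 gag libraries, and *NEFL* rose by 0.82 (SE 0.12, adjusted p = 0.000901), or 1.76-fold. *DPYSL4*, of the collapsin response mediators that relay guidance cues to microtubules, had 838, 962 and 455 with gag and 1260, 1492 and 888 with NC. Its ranges overlapped between numbers but it rose in each pair, by 0.72 overall (SE 0.12, adjusted p = 0.000558), and its relatives *DPYSL2*, *DPYSL3* and *DPYSL5* rose by 0.53, 0.47 and 0.29. *NRCAM*, a neuronal adhesion molecule, had 1761, 2643 and 2454 with gag and 2678, 3747 and 3695 with NC, just above the gag range, and rose by 0.57 (SE 0.09, adjusted p = 0.000531). *DCLK1*, a microtubule-binding kinase, and *STMN3* rose by 0.68 and 0.44. *STMN4*, another stathmin, went the other way, from 362, 83.3 and 107 with gag to 113, 34.4 and 50.7 with NC. It fell by 1.40 (SE 0.43, adjusted p = 0.0407), with an adjusted p of 0.0663 without gag 2. Without gag 1 its log2 difference was -0.82 and the adjusted p was 0.253. 9 of the 38 were called higher without gag 1.

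Receptors and ligands that guide axons moved in the same direction. Of 36 Slit, Robo, netrin, ephrin and Eph genes, 11 rose and 1 fell, and of 30 semaphorins, plexins and neuropilins, 6 rose and 0 fell. Over all genes tested, 8.76% were higher and 8.11% lower. Of the Slit to Eph list, 8 were called higher without gag 1 and 2 without replicate number 1. The repellent *SLIT3* had 164, 316 and 218 with gag and 305, 543 and 358 with NC and rose by 0.79 (SE 0.15, adjusted p = 0.00134). *EPHA10*, *EPHB1*, *NTNG2* and *ROBO2* rose by 0.85, 0.67, 0.69 and 0.53, and the ephrin *EFNA1* fell by 0.53. *SEMA5B* and *PLXNC1* rose by 0.87 and 0.76. Voltage-gated channels gave 8 rises and 3 falls of 53, a called share of 20.8% beside 16.9% of all genes. Without gag 1, 3 of these channels were higher and 0 lower. Genes of vesicle release gave 2 rises and 3 falls of 32, a called share of 15.6%, and their median was -0.05.

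Secreted and matrix proteins held several of the smallest p-values among well-expressed genes. *SPON1*, a floor plate matrix protein, had 866, 1333 and 876 with gag and 1487, 2123 and 1705 with NC. No libraries overlapped, and *SPON1* rose by 0.80 (SE 0.10, adjusted p = 0.000261), or 1.75-fold. *SDC3*, a neuronal heparan sulfate proteoglycan, had 1228, 1702 and 786 with gag and 1877, 2637 and 1549 with NC. The NC library was higher in each pair although NC 3 lay within the gag range, and *SDC3* rose by 0.73 (SE 0.10, adjusted p = 0.000261). *CRTAP*, needed for prolyl hydroxylation of collagen, rose by 0.63 from 5470, 8415 and 8512 to 8947, 13070 and 12340. Of 41 collagens 13 rose and 1 fell, with 6 higher without gag 1. *COL2A1* had 3877, 5765 and 5412 with gag and 5838, 7787 and 7697 with NC and rose by 0.51 (SE 0.07, adjusted p = 0.000261), the basement membrane chains *COL4A1* and *COL4A2* rose by 0.31 and 0.45, and the one that fell was *COL1A2*. Cadherins gave 8 rises, such as *CDH1* by 0.71 and *PCDH19* by 0.62, and 1 fall of 57. Their called share was 15.8%, beside 16.9% of all genes.

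Wnt genes were called at 16.7%, beside 16.9% of all genes, and are given by their values. The secreted Wnt antagonists *SFRP1*, *SFRP2* and *SFRP5* rose by 0.82, 0.88 and 0.92. *SFRP1* had 866, 1174 and 718 with gag and 1432, 2117 and 1326 with NC, without overlap (SE 0.12, adjusted p = 0.000503). *SFRP4* and *DKK1*, antagonists as well, fell by 0.63 and 1.3, and over 60 Wnt genes 7 rose and 3 fell, with 2 called higher and 0 lower without gag 1. Of 26 BMP and TGF-beta targets 6 fell and 2 rose, with 3 lower and 1 higher without gag 1. *ID3*, an inhibitor of basic helix-loop-helix factors that BMP induces, had 1776, 1108 and 1444 with gag and 1140, 637 and 623 with NC, so that NC 1 lay just above gag 2. It fell by 0.88 (SE 0.12, adjusted p = 0.000261), as did *ID1* by 0.89.

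**Figure D3:**
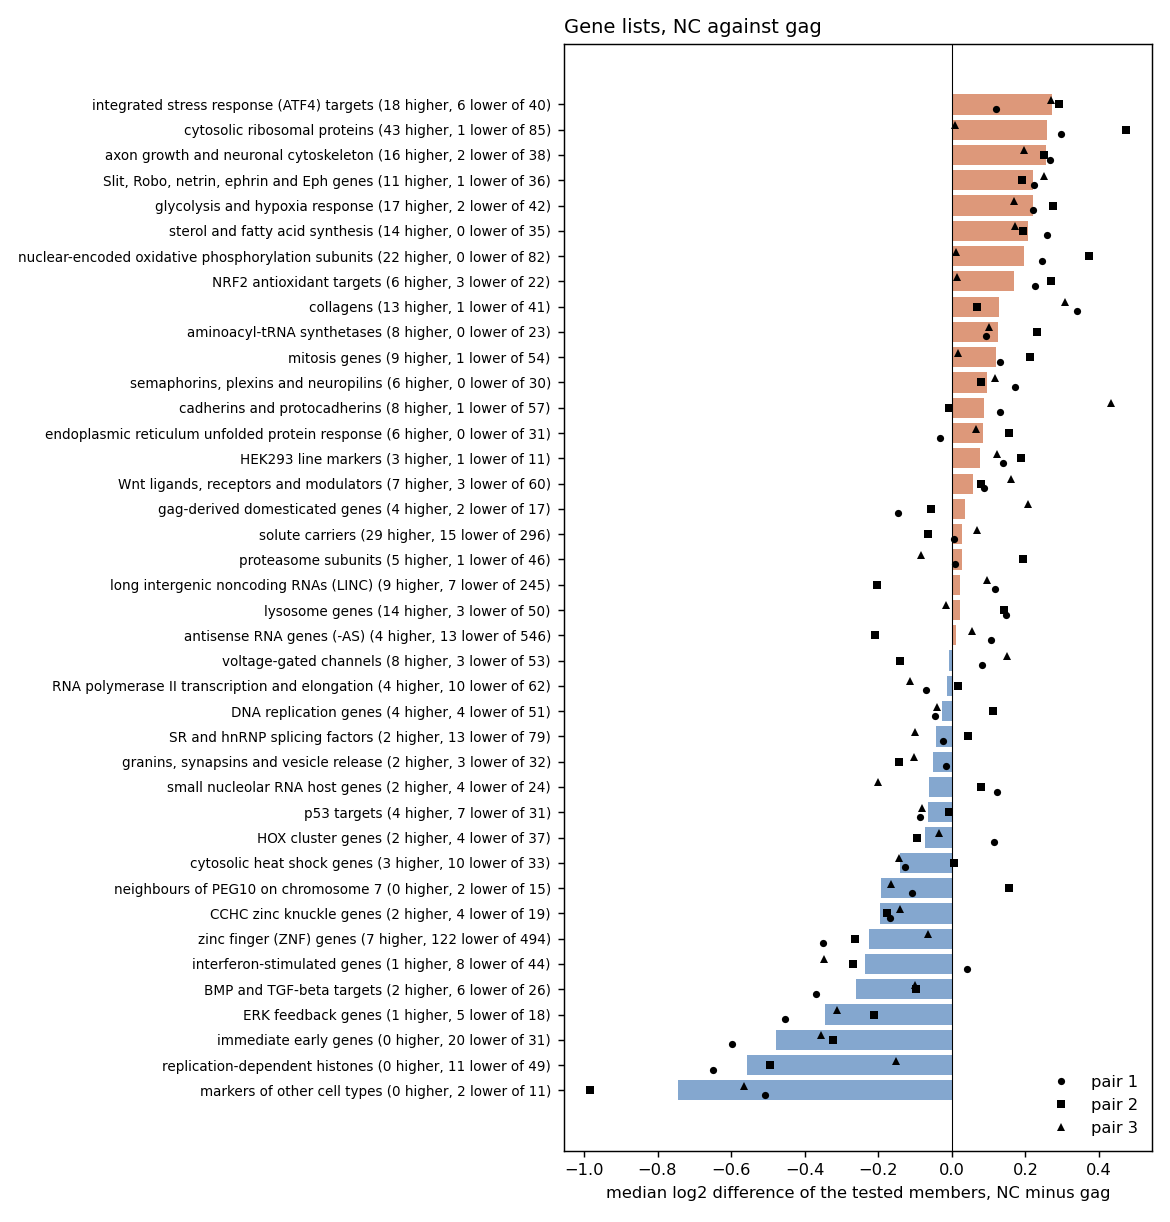
Median log2 difference between NC and gag over the tested members of each of 40 gene lists (bars), with the medians of the 3 replicate pairs as symbols and the numbers of members called in each direction in the labels. Immediate early genes and ZNF genes lie below 0 in all 3 pairs, and axon growth genes, ATF4 targets and sterol synthesis above 0 in all 3. For ribosomal proteins and oxidative phosphorylation the symbol of pair 3 lies close to 0.

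Transcripts of ribosomal proteins and of oxidative phosphorylation had positive medians in pairs 1 and 2. Of 85 cytosolic ribosomal proteins 43 rose and 1, *RPL22L1*, fell. *RPS4X* had 50830, 59750 and 58730 with gag and 69180, 92460 and 67550 with NC, without overlap, and rose by 0.42 (SE 0.10, adjusted p = 0.00484). The family's median of 0.26 came from pairs 1 and 2, at 0.30 and 0.47, while pair 3 stood at 0.01. Leaving out gag 1 left 5 of its members called higher and leaving out gag 2 left 8. Without replicate number 1 or without number 2 it was 0, and without number 3 it was 77. Nuclear-encoded subunits of oxidative phosphorylation gave 22 rises and 0 falls of 82, a called share of 26.8%, with pair medians of 0.24, 0.37 and 0.01. Of these subunits 1 was called without gag 1 and 4 without gag 2. Without replicate numbers 1, 2 and 3 it was 0, 3 and 56. Ribosomal protein genes have many processed pseudogenes, and reads shared with them could not be followed in the counts.

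Lists of lipid and sugar enzymes had positive medians in all 3 pairs. Of 35 genes of sterol and fatty acid synthesis 14 rose and 0 fell. *SCD*, the desaturase that makes oleate, had 18670, 20050 and 18110 with gag and 27940, 29950 and 25900 with NC. All NC libraries were above all gag libraries, and *SCD* rose by 0.56 (SE 0.08, adjusted p = 0.000407), or 1.47-fold, while *SQLE* and *IDI1* of the sterol branch rose by 0.65 and 0.52. Of 42 glycolytic and hypoxia-response genes 17 rose and 2 fell. *PFKL*, a phosphofructokinase, rose by 0.47, *LDHA* by 0.56 and *PGK1* by 0.60, and *ADM*, the peptide adrenomedullin, fell by 1.01 from 2180, 1347 and 1780 to 768, 865 and 955. Without gag 1, 3 of the sterol list and 4 of the glycolysis list were called higher, and without gag 2 it was 8 and 7. Genes of the unfolded protein response of the endoplasmic reticulum gave 6 rises and 0 falls of 31, among them *HSP90B1* by 0.37 and *PDIA6* by 0.41. That is a called share of 19.4%, beside 16.9% of all genes. Lysosomal genes gave 14 rises and 3 falls of 50, with a median of 0.02 and 2 rises without gag 1. Of 22 NRF2 targets 6 rose and 3 fell, with 1 higher without gag 1. The reductive enzymes *TXN*, *GSR*, *TKT* and *ME1* rose by 0.39, 0.30, 0.31 and 0.26, whereas *HMOX1*, which breaks down heme, had 1169, 359 and 372 with gag and 457, 168 and 252 with NC and fell by 1.02 (SE 0.17, adjusted p = 0.000639).

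Growth and cell cycle lists differed in how many members were called, beside 8.76% higher and 8.11% lower over all genes. Of 54 mitosis genes 9 rose and 1 fell, with 1 higher without gag 2, and of 51 DNA replication genes 4 rose and 4 fell. Proteasome subunits gave 5 rises and 1 fall of 46, and HOX genes 2 rises and 4 falls of 37. Of 31 p53 targets 4 rose and 7 fell, a called share of 35.5%, and 2 were lower without gag 1, with *CDKN1A*, the p21 inhibitor of the cell cycle, down by 0.40 and *BBC3*, the apoptosis inducer PUMA, down by 0.42. In this bulk RNA, fewer cells of a kind and less RNA per cell cannot be told apart for these or any other genes. Among 296 solute carriers 29 rose and 15 fell. Long noncoding genes were seldom called, with 9 rises and 7 falls of 245 LINC genes and 4 rises and 13 falls of 546 antisense genes, and counts of the latter may hold reads of the opposite strand, as for *DNAH17-AS1*, which fell by 1.73.

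The largest rises were in genes of low level. *LINC00950*, a noncoding RNA, had 38.7, 160 and 60.7 with gag and 141, 270 and 164 with NC, and rose by 1.297 (SE 0.24, adjusted p = 0.00162). *GPR12*, an orphan receptor that raises cAMP, had 44.7, 83.3 and 19.6 with gag and 99.5, 145 and 80.4 with NC and rose by 1.26 (SE 0.29, adjusted p = 0.00575). *SMIM10L2A* on the X chromosome had 227, 330 and 73.1 with gag and 452, 614 and 268 with NC and rose by 1.19 (SE 0.21, adjusted p = 0.00128), and its close copy *SMIM10L2B* rose by 1.08, with reads that the 2 may share. In all of these the ranges overlapped between replicate numbers while each NC library exceeded the gag library of its own number. *GABRA5*, a GABA receptor subunit, *BMP3* and *AK5*, a brain adenylate kinase, rose by 0.99, 0.97 and 0.98.

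Rises were frequent on the X chromosome. Of its 552 genes tested, 111 (20.1%) were higher with NC and 16 (2.9%) lower, while the 22 autosomes had between 6.52 and 11.8% higher. The median log2 difference on X was 0.10, at 0.13, 0.11 and 0.11 in pairs 1, 2 and 3, and the autosomes lay between -0.09 and 0.03. The rises were spread along the chromosome, since each of 16 windows of 10 Mb held more higher than lower genes. *GPC4*, a glypican, and *AMOT*, a Hippo pathway scaffold, rose by 0.61 and 0.74. The median of X relative to other genes stood at 0.07, 0.12 and 0.00 in NC 1, 2 and 3 and at -0.06, -0.02 and -0.11 in gag, and the controls reached from -0.15 to 0.05, so the 3 controls spanned most of that range. Without gag 1, 43 genes on X were higher and 7 lower, and without gag 2 there were 64 and 10. Chromosome 19 had the largest share of lower genes, 180 of 1227 (14.7%), of which 62 were ZNF genes, and the 180 became 60 without gag 1 and 105 without gag 2. The other 988 genes there gave 118 lower and 80 higher, and after a trend on GC content and length was removed, 99 and 99.

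**Figure D4:**
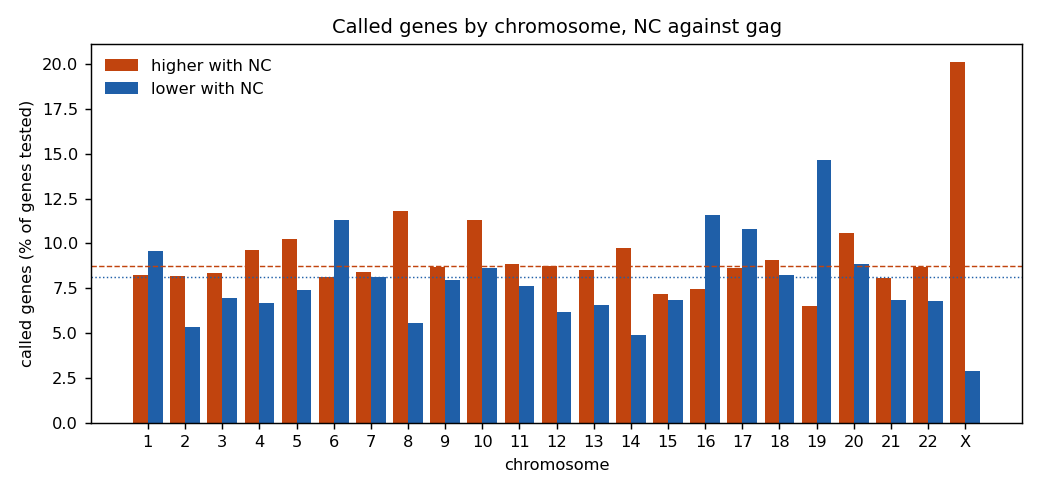
Share of tested genes called higher (red) or lower (blue) with NC than with gag, in percent, for each of the 22 autosomes and X. The dashed line is the share over all genes higher, 8.76%, and the dotted line the share lower, 8.11%. The red bar of X, 20.1%, is above all other bars, and the blue bar of chromosome 19, 14.7%, is the highest of its color.

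Called genes were more frequent at higher levels, where counts are more precise. With genes split into 4 equal classes by mean level, 3.52% of the lowest class and 27.8% of the highest were called. The differences had a Spearman's rho of 0.01 with GC content and 0.04 with exon length across 16482 genes. Genes share libraries and are not replicates. By pair, the rho with GC content differed in sign, at 0.09, -0.11 and 0.03 in pairs 1, 2 and 3. With the GC and length trend removed, 1896 genes were called higher and 1210 lower, in place of 1504 and 1393.

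A comparison without common libraries was given by gag-pol against control, since gag-pol can release nucleocapsid and the control plasmid cannot. Fitted on its own 6 libraries, gag-pol against control called 1130 of 16538 genes (6.83%), and NC against gag fitted likewise called 2128 of 16452 (12.9%). In both fits 296 genes were called, 13.9% of those called for NC against gag and 26.3% of those for gag-pol against control, and 260 of the 296 had the same sign. Of 2126 genes called for NC against gag and tested in both, 1662 (78.2%) had the same sign in gag-pol against control, as did 63.6% of all 16216 genes. That share rested on replicate 3: it was 50.5% without replicate number 3, against 51.4% of all genes, and 90.1% and 74.6% without numbers 1 and 2. The log2 ratios by number showed the same. Across 17175 genes, the ratio of gag-pol 3 to control 3 had a Spearman's rho of 0.28, 0.43 and 0.40 with the NC to gag ratios of numbers 1, 2 and 3, while those of gag-pol 1 and 2 had between -0.01 and 0.19. The 3 NC to gag ratios had 0.25 to 0.42 with each other and the 3 gag-pol to control ratios 0.30 to 0.39. *CCL2*, a chemokine, fell in both, at -1.76 for NC against gag and -1.93 for gag-pol against control, and *DPYSL4* rose by 0.73 and 0.81. *COL1A2*, *CASD1* and *ARC* had opposite signs in the 2 comparisons, with -3.72 and 3.61, -0.87 and 0.88, and -1.41 and 0.73.

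**Figure D5:**
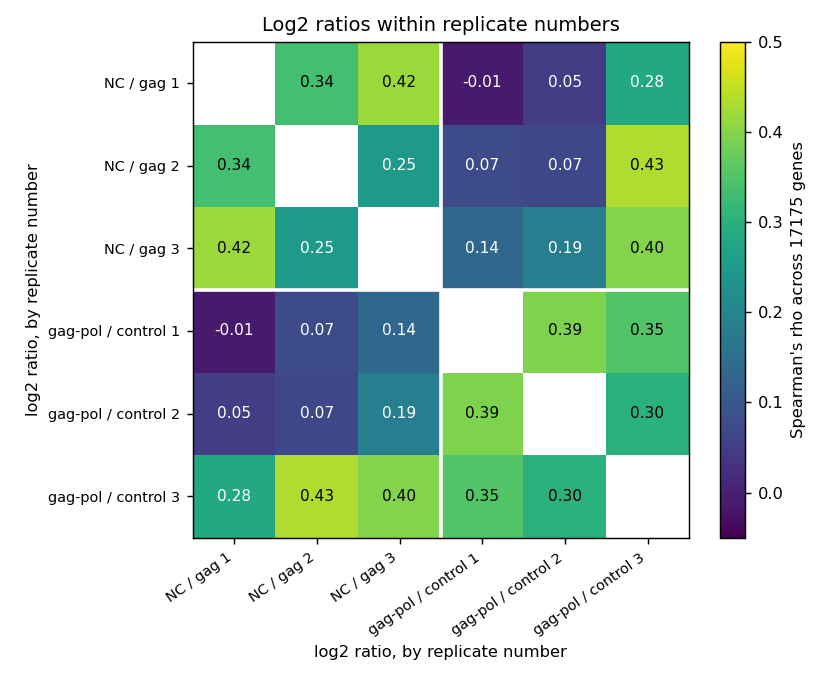
Spearman's rho across 17175 genes between log2 ratios of libraries with the same replicate number, for NC over gag and for gag-pol over control, with color and printed value giving rho. Ratios of the same comparison share 0.25 to 0.42, and between the 2 comparisons only the column of gag-pol over control 3 reaches 0.28 or more.

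Against control, which is shared by the comparisons, NC changed 1921 genes (11.2%), with 6.03% higher and 5.15% lower, gag changed 185 (1.08%), with 0.693% higher and 0.384% lower, and gag-pol changed 1941 (11.3%), with 5.47% higher and 5.83% lower. Some genes that separate NC from gag differed from control on the gag side. *ATF3* was 1.02 above control with gag (adjusted p = 0.000771) and 0.11 with NC (adjusted p = 0.597), *DUSP1* was 0.80 above control with gag (adjusted p = 0.00280) and -0.01 with NC (adjusted p = 0.970), and *PPDPF* was -0.56 with gag (adjusted p = 0.000271) and 0.00 with NC (adjusted p = 0.987). Others differed on the NC side. *SPON1* was 0.61 above control with NC (adjusted p = 0.00117) and -0.19 with gag (adjusted p = 0.427), *SDC3* was 0.69 and -0.04, and *IFIT1* was -1.01 with NC (adjusted p = 0.00645) and 0.11 with gag (adjusted p = 0.858). *ZCCHC12* moved on both sides, with 0.43 above control for gag (adjusted p = 0.0457) and -0.49 for NC (adjusted p = 0.00645).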

How the data were processed

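Poly(A) RNA of 12 samples, 3 per plasmid, was sequenced by the authors, aligned with STAR 2.7.3 to GRCh38.p13, handled with SAMtools 1.8 and counted per gene with featureCounts, per the labels and the study's methods. The deposited values are raw read counts per gene symbol. The annotation release, strand setting and treatment of reads that map to several places are not given in the sources used here, so counts of overlapping or near-identical genes are uncertain. The table holds no mitochondrially encoded genes. All count columns were mapped to samples.

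Counts were filtered (minimum count 10, minimum total 15), normalized with TMM and fitted with edgeR 4.0.16 in R 4.3.3 by the quasi-likelihood test with robust estimation, over all 12 libraries. The model held the construct and the replicate number. P-values were adjusted by Benjamini-Hochberg across every gene tested, with 0.05 as the threshold. Log2 differences are NC minus gag. A normalised read count is the raw count over the library's TMM-adjusted total, brought to the mean total of all libraries. The replicate number was kept as a block because libraries of the same number deviated together: the correlation of the 3 NC and gag pairs was 0.18 to 0.51, against -0.50 to 0.06 for other numbers. The labels do not say what a number stands for, and the study's methods use the harvest date as a variable. The study calls its RNA-seq replicates biological, and the labels do not say whether they were separate cultures. P-values measure the spread left between these samples after construct and replicate number are fitted, estimated over all 4 groups together.

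The members, the 41 gene lists and the tests were chosen with earlier results of these data known. Genes were named by rule: the 12 largest rises and falls (mean of at least 1 on the log2 CPM scale, same direction in all pairs), the 5 smallest p in each direction with a mean of at least 5, and up to 3 called members per list and direction. Other called list members named with a value, the heart muscle genes, the genes of chromosome X and the motifs of the interferon response element and CArG box were chosen after their values were seen. Alternatives were DESeq2 1.42.0, other size factors and filters, no block, 6 libraries, *PEG10* left out, no robust estimation, thinning, a GC and length trend removed (96.0% of genes had both), a fold limit, and each library or number left out. Leaving out libraries for gene lists and chromosomes was added after seeing the data. In simulated data the fit recovered 60.5% of 200 changed genes between NC and gag, with 40.3% at 1.3-fold and 81.8% at 2-fold, and made 7 false calls. The simulated counts were independent between genes and libraries apart from replicate effects, and no simulated library was deviant as gag 2 was. The false calls therefore do not give an error rate for the 2897 calls. Positions are from GENCODE 44, promoters from RefSeq (GRCh38.p14).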

Additional observations from a re-analysis of the deposited data

How the results depend on the processing

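No gene called between NC and gag changed sign under any of the alternatives run. The total of 2897 called genes stayed between 2128 and 3379 with other size factors, other filters, DESeq2, *PEG10* left out, no robust estimation, thinned counts, the 6 libraries alone and the GC and length trend removed, which gave 1896 higher and 1210 lower. With an absolute log2 difference of at least 0.5 required it was 814, with 337 higher and 477 lower. Without the replicate block 0 genes were called in total, 0 higher and 0 lower, although 1891 had an unadjusted p under 0.05, and 0 were called in both NC against gag and gag-pol against control.

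Leaving out single libraries or whole replicate numbers gave 341 to 3555 called genes, with 183 to 2002 higher and 158 to 1663 lower. The total was 939 without gag 1, 1353 without NC 1 and 1657 without gag 2, and 341 without number 1. Genes called in both separate comparisons ranged from 133 to 382, and the share of genes with the same sign from 50.5 to 90.1%, with the lowest value without number 3. Of the 204 named genes, 153 were called without gag 2 and 129 without gag 1. Thinning all libraries to the smallest left 2896 called genes. Of simulated 1.3-fold changes between NC and gag, 40.3% were recovered.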

Other observations

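Heart muscle transcripts in the library gag 2 covered structural, electrical and endocrine genes. Of 22 such genes, 19 were highest in gag 2 and 14 had more than 10 times the CPM of every other library. The natriuretic peptide *NPPA* had 688 counts there against at most 28 elsewhere, *NPPB* had 648 against at most 5, *MYH7*, the ventricular myosin heavy chain, 743 against at most 12, and *HSPB7*, a muscle chaperone, 817 against at most 12. *NKX2-5*, a heart transcription factor, did not follow, with 1848 counts in gag 2 and 1254 to 2174 in the other libraries, nor did *RYR2*, the calcium release channel, with 2391 against 1017 to 2301. Where these reads came from was not tested.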
